A study of Drosophila melanogaster with 2 samples.

Results

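The 7 genes described here mark stages of nerve cell formation in Drosophila melanogaster, and they were listed by name: elav, fne and Rbp9 of the ELAV family, and pros, repo, dpn and ase. They are 7 of the 13945 protein-coding genes annotated on the 6 chromosome arms. Chromatin immunoprecipitation with sequencing (ChIP-seq) was carried out with an anti-GFP antibody on whole embryos, males and females pooled, aged 0 to 24 h, of strain CG4282-GFP. This transgenic line stably expresses the CG4282 protein with GFP at its C-terminus, and both libraries, biological replicates 3 and 4, came from that line. The sources used here name neither the promoter that drives the transgene nor the aim of the experiment. No second group, untagged line or control library was among the samples, so all comparisons are between peak lists, between genes or between replicates, and none carries a test. Signal from every cell type of the embryo is mixed in each library, so a site bound in few nerve cells cannot be told apart from a weakly bound one.

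In the fly, neuroblasts divide asymmetrically and give rise to neurons and glia. Deadpan (dpn) and Asense (ase) are basic helix-loop-helix proteins of neuroblasts, Prospero (pros) is a homeodomain protein that is passed to the daughter cell and ends its self-renewal, and Repo is the homeodomain protein of nearly all lateral glia. ELAV and FNE are RNA-binding proteins of neurons that act on splicing and 3' end choice, and Rbp9 is their paralog, also known for its role in the ovary.

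Of the 7 genes, 2 held peaks of the authors' optimal list, which contains 1985 peaks: elav had 2 and pros had 1. A gene was counted when a peak summit lay in its body or within 2 kb of it. By this rule 21.0% of all protein-coding genes held an optimal summit and 3.96% held at least 2, so the count of 2 in 7 was near the background. The other 5 genes held only weaker peaks of the relaxed list of 30000 made from both replicates pooled. The highest pooled signal at any of these 5 was 44.4, at Rbp9, while the lowest signal in the optimal list was 66.9. Signal is the authors' own enrichment value for a peak and was read only within a list or as a rank, where 1 is the strongest.

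The sequences around the 3 optimal summits and around the strongest summit of fne, a paralog without an optimal peak, are given first because the contrast between the genes rests on these sites. They were read from the RefSeq copy of the dm6 build, 5' to 3' on the strand of the named gene, with 300 bases for each optimal peak and a shorter stretch for fne. Capitals mark matches on either strand to the motifs listed further on. The elav upstream peak is at chrX:523361-523660 and the elav intron peak at chrX:522471-522770, both on the minus strand. The pros intron peak is at chr3R:11351456-11351755 and the fne intron site at chrX:12939976-12940076, both on the plus strand. None of these windows touches an annotated untranslated region.
elav upstream peak: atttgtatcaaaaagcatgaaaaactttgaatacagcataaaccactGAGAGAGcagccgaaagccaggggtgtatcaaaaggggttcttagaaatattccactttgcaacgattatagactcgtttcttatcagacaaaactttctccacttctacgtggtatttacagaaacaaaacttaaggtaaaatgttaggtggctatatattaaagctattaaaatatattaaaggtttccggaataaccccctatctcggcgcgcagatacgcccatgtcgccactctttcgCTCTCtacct
elav intron peak: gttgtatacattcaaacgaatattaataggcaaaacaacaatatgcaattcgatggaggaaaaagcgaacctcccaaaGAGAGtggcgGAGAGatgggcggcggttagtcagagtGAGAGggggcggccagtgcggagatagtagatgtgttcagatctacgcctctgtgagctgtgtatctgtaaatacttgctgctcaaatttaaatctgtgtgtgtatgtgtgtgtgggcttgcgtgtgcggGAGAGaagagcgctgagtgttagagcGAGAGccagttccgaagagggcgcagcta
pros intron peak: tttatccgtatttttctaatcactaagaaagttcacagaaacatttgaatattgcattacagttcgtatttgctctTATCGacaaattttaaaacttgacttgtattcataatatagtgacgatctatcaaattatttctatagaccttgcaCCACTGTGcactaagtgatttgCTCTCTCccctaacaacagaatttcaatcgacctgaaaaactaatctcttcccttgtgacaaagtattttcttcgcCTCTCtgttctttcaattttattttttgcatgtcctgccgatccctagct
fne intron site: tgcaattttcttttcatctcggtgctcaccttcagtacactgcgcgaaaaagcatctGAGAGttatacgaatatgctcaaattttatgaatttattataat

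The elav gene (FBgn0260400, X, 509235 to 523226, minus strand) had the only optimal summit of the 7 genes within 500 bp of one of the gene's own transcription start sites (TSSs). Its pooled signal was 148, rank 363, and its summit lay 285 bp upstream of the distal TSS, which elav shares with the non-coding gene lncRNA:enrr. In replicate 3 the signal at this peak was 87.1, rank 186, with the summit 290 bp upstream. In replicate 4 it was 62.9, rank 817, with the summit 200 bp upstream. Both replicates thus had the upstream peak among their strongest 1985 peaks, but the summits differed in place, by 5 bp from the pooled summit in replicate 3 and by 85 bp in replicate 4.

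The second optimal peak of elav lay 605 bp downstream of the same TSS, in an intron, with a pooled signal of 129 and rank 513. Its signal was 61.6 in replicate 3, rank 416, and 69.6 in replicate 4, rank 640. The upstream peak was the stronger of the pair in replicate 3 and in the pooled list, and the intron peak was the stronger in replicate 4. The summits were 890 bp apart. Of all 1985 optimal summits, 238 had another optimal summit within 1 kb, or 12.0% (Wilson 95% interval, 10.6 to 13.5, for counting error only). Both peaks also lie within an intron of arg, the arginase gene, which overlaps elav on the other strand. The upstream peak is outside the body of elav, and the intron peak is in the bodies of elav, lncRNA:enrr and arg.

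The remaining summits at elav were weak. The pooled list had 5 more, with ranks from 4934 to 20428. That of rank 5865 lay 337 bp upstream of the proximal elav TSS, and ranked 3681 in replicate 4 and 23442 in replicate 3. The nearest optimal summit outside the elav window was 9416 bp beyond the gene, at a start of svr, with a signal of 97.2.

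**Figure D1:**
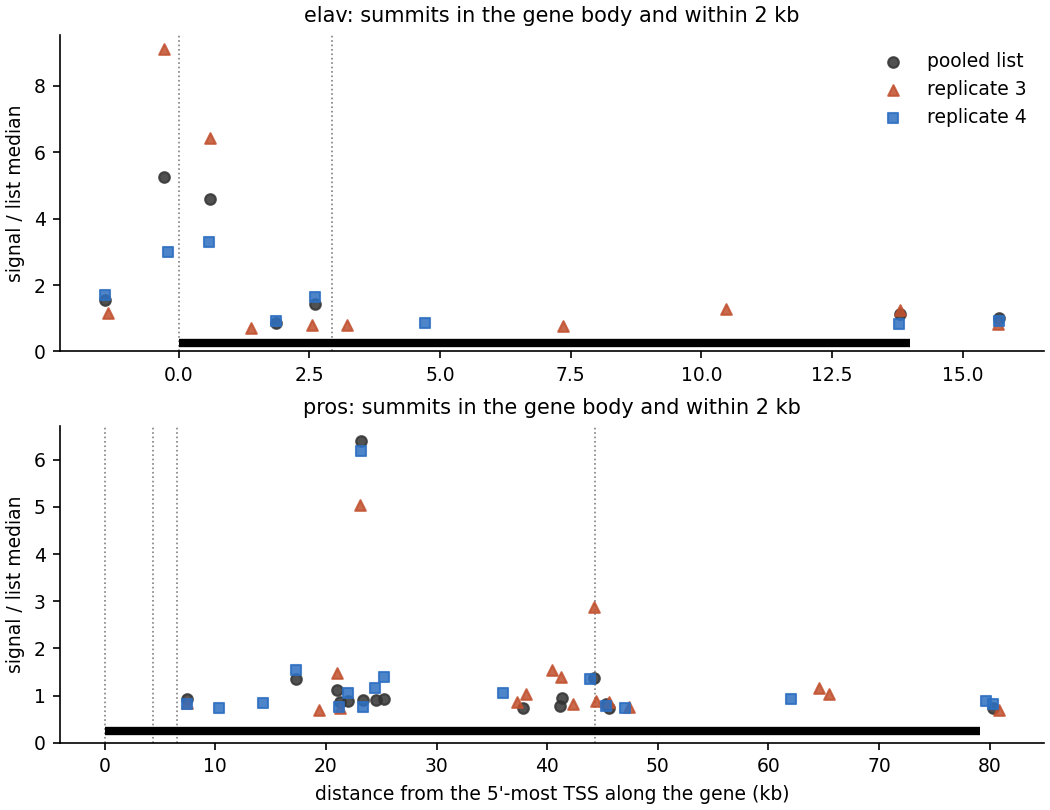
Summits at elav (top) and pros (bottom) by distance along the gene from its most upstream TSS in kb, with the signal of each summit divided by the median signal of its own list. The black bar is the gene body and dotted lines are TSSs. At elav the high points flank the first TSS, and at pros a site in the gene body is the highest in all 3 lists.

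The pros gene (FBgn0004595, 3R, 11328480 to 11407627, plus strand) held the strongest peak of the 7 genes in the pooled list and in replicate 4. In replicate 3 both optimal peaks of elav were stronger. The pros peak had a pooled signal of 180, rank 231, and its summit lay 16626 bp downstream of the nearest pros TSS, in an intron. The signal was 48.2 in replicate 3, rank 695, and 130 in replicate 4, rank 146, and the summits of the replicates were 6 and 0 bp from the pooled one. The site ranked high in both libraries, and higher in replicate 4. It also lies in an intron of KP78a and KP78b, kinase genes nested in pros on the opposite strand, 1525 bp downstream of the start they share. The deposited lists do not assign the peak to any of the 3 genes.

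A second site at pros differed between the replicates. In replicate 3 a summit 64 bp upstream of the most downstream pros TSS had a signal of 27.6 and rank 1924, just inside the strongest 1985. In replicate 4 the nearest summit lay 420 bp upstream of that TSS, with a signal of 28.2 and rank 6583. The pooled summit was 81 bp upstream, with a signal of 38.6 and rank 6703, and did not enter the optimal list. The start is internal to longer pros transcripts, so the summit falls in a coding exon of these. The other 14 pooled summits of pros ranked 6880 or lower.

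Among the paralogs of elav, neither had an optimal peak. At Rbp9 (FBgn0010263, 2L, 2954762 to 2968434, plus strand) the strongest pooled summit, signal 44.4 and rank 4740, lay past the end of the gene in a coding exon of Ts, which encodes thymidylate synthase. There the signal was 8.15 in replicate 3, rank 20606, and 33.5 in replicate 4, rank 3990. The strongest within the gene had a signal of 38.4 and rank 6771, 256 bp downstream of a TSS in the 5' UTR. There replicate 4 had a signal of 36.9 and rank 3008, while no peak of replicate 3 overlapped it. The strongest summit of replicate 3 at Rbp9 was another one, 1050 bp upstream of that same TSS, with a signal of 14.5 and rank 6232.

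The fne gene (FBgn0086675, X, 12917477 to 12950417, plus strand) had its strongest pooled summit in an intron, 1246 bp upstream of an internal TSS, with a signal of 36.1 and rank 7923. The overlapping peak had a signal of 16.7 in replicate 3, rank 4726, and 22.7 in replicate 4, rank 12244. These replicate peaks also overlapped a second pooled summit of rank 12481, 1047 bp upstream of the same TSS. The replicate 3 summit, 1092 bp upstream, was nearer to that second summit and outside the fne sequence shown. The strongest summit of replicate 4 was elsewhere, 251 bp upstream of another internal TSS, with a signal of 24.8 and rank 9598. Neither replicate came near the strongest 1985 at fne, and the nearest optimal summit outside its window was 137894 bp away.

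The neuroblast genes had the weakest sites. At dpn (FBgn0010109, 2R, 8228971 to 8232330, minus strand) the strongest pooled summit had a signal of 30.0 and rank 12654, in a coding exon that overlaps the antisense gene asRNA:CR44275. It was met in replicate 4 alone, with a signal of 20.5 and rank 15929. Replicate 3 had a single summit, 75 bp downstream of the dpn TSS, with a signal of 6.69 and rank 29375. At ase (FBgn0000137, X, 460747 to 463176, plus strand), which lies in an intron of CG32816, the strongest pooled summit had a signal of 25.8 and rank 18234. It lay past the end of the gene, 4244 bp from the start of Cyp4g1, the nearest TSS. It ranked 21383 in replicate 3 and was not met in replicate 4, where the strongest summit was another one, in the ase coding exon, with a signal of 21.8 and rank 13792. No summit at either gene was met in both replicates.

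The glial gene repo (FBgn0011701, 3R, 18236192 to 18239602, plus strand) had its strongest pooled summit in a coding exon, with a signal of 39.8 and rank 6196. The replicates differed widely there, at 36.0 in replicate 4, which was rank 3216 there, and at 8.04 in replicate 3, which was rank 21148. Of the 5 genes without an optimal peak, repo had the closest one. Its summit was 3122 bp beyond the gene, 37 bp from a start of 14-3-3epsilon, with a signal of 69.6 and rank 1815. At the other edge of the rule, the upstream peak of elav counted at 285 bp from the gene body.

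Ordered by the strongest summit in the pooled list, the genes ran pros, elav, Rbp9, repo, fne, dpn and ase. In replicate 3 the order was elav, pros, fne, Rbp9, repo, ase and dpn, with ranks of 186, 695, 4726, 6232, 21148, 21383 and 29375. In replicate 4 it was pros, elav, Rbp9, repo, fne, ase and dpn, with ranks of 146, 640, 3008, 3216, 9598, 13792 and 15929. The order of elav and pros, and the orders among Rbp9, repo and fne, thus changed between replicates. The gap that set elav and pros apart from the other 5 was present in both replicates, where the weaker of the pair ranked 695 and 640 and the best of the others 4726 and 3008. The optimal list that singled out the pair was derived from these same replicates, and 1983 of its 1985 peaks overlapped a peak in each. High ranks of the pair in both are therefore not separate support for the gap. The median best rank of the 11534 protein-coding genes with a pooled summit was 5505. With genes lacking any summit counted as weaker, 3.13% of protein-coding genes had a better best rank than pros, 4.70% than elav, 37.8% than Rbp9, 44.0% than repo, 50.2% than fne, 62.1% than dpn and 71.4% than ase.

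**Figure D2:**
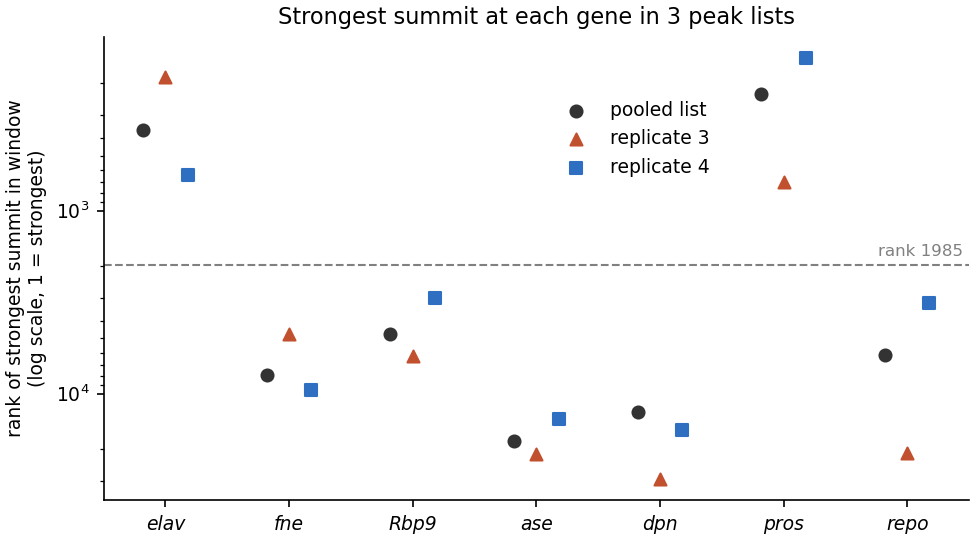
Rank of the strongest summit in the window of each of the 7 genes (vertical log axis, 1 at the top) in the pooled list, replicate 3 and replicate 4. All points of elav and pros lie above the dashed line at rank 1985, and all points of the other 5 genes lie below it.

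The count of 2 in 7, or 28.6% (Wilson 95% interval, 8.22 to 64.1), was near the background. The interval treats the 7 genes as random draws of equal chance, although they were listed by name and differ in window length. Of the 13945 protein-coding genes, 21.0% had an optimal summit by the same rule. Genes with at least 2 optimal summits, as at elav, made up 3.96%, and for 11.4% an optimal summit lay no more than 500 bp from a TSS, as it did for 1 of the 7. With the strongest 1985 peaks of a single replicate in place of the optimal list, 2 of the 7 genes counted in each, again elav and pros, against 20.8% of protein-coding genes in replicate 3 and 20.7% in replicate 4. Both replicates gave such a summit for these 2 genes and for 15.3% of protein-coding genes.

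Longer genes held optimal summits more often, and the 7 genes differ in length. The windows of elav and Rbp9 were 18.0 and 17.7 kb long, and only that of elav had optimal peaks. In the length class that holds both windows, 30.1% of protein-coding genes had an optimal summit. Of the 1455 protein-coding genes with a window at least as long as that of elav, 36.9% had one, and of the 137 with one at least as long as that of pros (83.1 kb), 43.1%. Of the 9071 genes with windows no longer than that of dpn (7.36 kb), 15.7% had one. The window of fne was 36.9 kb long and held none, and in its length class 36.9% of protein-coding genes had one. Whether length sets which of the 7 genes held optimal summits was not tested. Per length, the 7 windows held 1.70 optimal summits per 100 kb, against 1.48 over the arms, and 25.4 pooled relaxed summits per 100 kb, against 22.4.

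**Figure D3:**
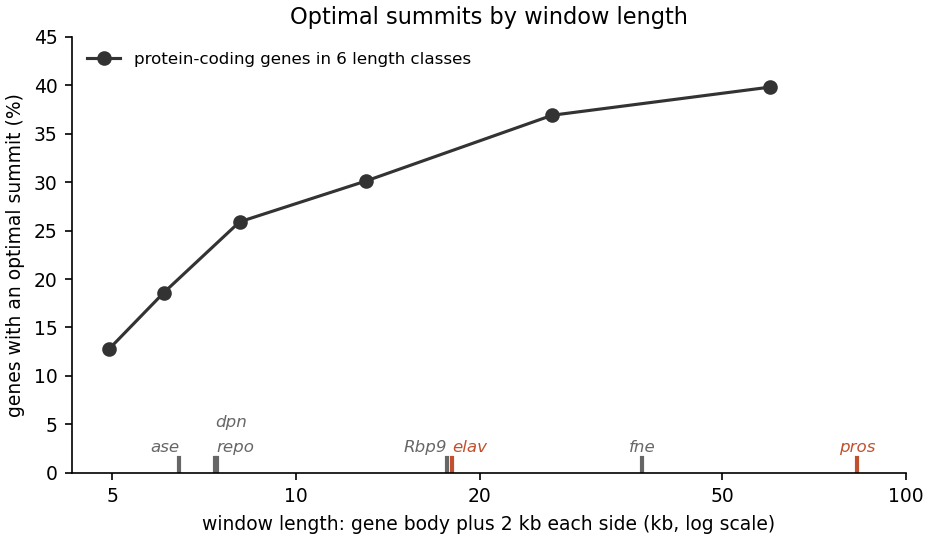
Share of protein-coding genes with an optimal summit (vertical axis, %) against the median window length of 6 length classes (horizontal log axis, kb). Ticks at the base mark the 7 genes, red for elav and pros, which had an optimal summit. The share goes from 12.8% in the shortest class to 39.8% in the longest.

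Of the 42 pooled summits of the 7 genes that were not optimal, 19 overlapped a peak in both replicates, or 45.2% (Wilson 95% interval, 31.2 to 60.1), against 49.1% of all pooled peaks that were not optimal. With the 3 optimal ones, 22 of 45 did, or 48.9% (35.0 to 63.0), against 52.5% of all pooled peaks. A further 15 were met in replicate 4 alone, 6 in replicate 3 alone and 2 in neither. A pooled peak can share its replicate peak with a neighbour, so these counts are not of separate sites. The intervals in this paragraph treat the summits as separate and do not allow for such sharing. By position, 14 of the 45 lay within 500 bp of a TSS of any gene, or 31.1%, against 30.2% of all pooled summits. Farther from a TSS, 18 of the 45 lay in introns, or 40.0% (27.0 to 54.5), against 28.7%. Summits in an intron but within 500 bp of a TSS were not counted among the intron ones.

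Beside other optimal peaks, the upstream peak of elav leaned to replicate 3 and the peak of pros to replicate 4. The log2 ratio of replicate 3 to replicate 4 signal, less its median over all pooled peaks met in both, was 1.48 at the upstream elav peak and 0.84 at the intron peak, and -0.42 at pros. Over the 1983 optimal peaks met in both replicates its median was 0.48 and its quartiles were 0.09 and 0.82. The upstream elav peak was at percentile 97.7 of these, the intron elav peak at percentile 76.4 and the pros peak at percentile 7.97. Only 2 libraries were available, so the spread of such a ratio within a site was not measured.

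**Figure D4:**
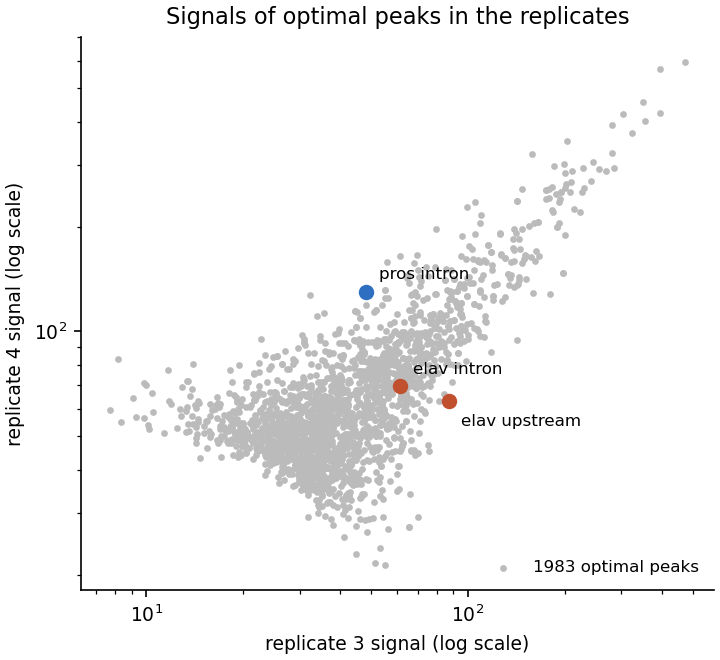
Signal in replicate 3 (horizontal log axis) against replicate 4 (vertical log axis) for the 1983 optimal peaks that overlap a peak in both replicates, with those of elav in red and pros in blue. The upstream elav peak lies towards the replicate 3 side of the cloud and the pros peak towards the replicate 4 side.

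The 3 optimal peaks shared few sequence features. All 3 held GAGAG, the core recognised by GAGA factor, with 7, 5 and 4 matches in the upstream elav, intron elav and pros peaks, overlapping matches counted separately. It was present in 45.9% of all optimal peaks, and at least 7, 5 and 4 matches occurred in 3.27%, 6.80% and 9.57% of them. The shorter window shown for fne also held GAGAG, as did windows of that length around the summits of 2 of the 3 peaks and of 12.7% of all optimal peaks. CGATA, the core of the site of the insulator protein BEAF-32, was in the intron elav peak and the pros peak, 156 and 72 bp from the summit, and in 48.6% of all optimal peaks. The peak at pros alone held CACAGTGG, a word picked from earlier results on these peaks and present in 11.3% of them, on the minus strand 6 bp from the summit. It is read as its reverse complement in the pros sequence above.

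Letters of the other motifs were in none of the 3 peaks. These were TATCGATA, the DNA replication-related element that contains CGATA (8.26% of all optimal peaks), AGATAA for GATA factors (20.7%), the E-boxes CAGCTG (23.1%) and CACCTG (11.6%) bound by basic helix-loop-helix or Snail proteins, CAGGTAG for Zelda (1.86%) and the TATA box TATAAA (41.2%). All were searched on both strands over the whole peak. The GC content was 42.0% in the upstream and 45.8% in the intron peak of elav and 34.0% at pros, against a median of 40.7%, and 8.11% of optimal peaks had a lower one than pros.

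The genes whose ranks were closest to those of elav were Tsp42El and Tsp42Ek, tetraspanin genes that share a summit ranked 286 in the pooled list, 174 in replicate 3 and 596 in replicate 4. The next was CG8841, with ranks of 365, 236 and 571. The distances, taken on log10 ranks over these 3 lists, were 0.112 and 0.115 among 10370 genes with a summit in each. Closest to pros were row and CG8093, which share a summit ranked 262, 610 and 185, at 0.130, and the kinase gene Drak, ranked 226, 524 and 164, at 0.133. The pooled list is made of both replicates, so the 3 ranks are not separate measurements.

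Other neural genes were counted by the same rule in 6 lists, described by their counts alone. In all, 17 of 69 held an optimal summit, or 24.6%, against the 21.0% of protein-coding genes given above, and their median window was 18.7 kb against 6.17 kb. Proneural and neuroblast factors, the group closest to dpn and ase, counted 1 of 19, with a median window of 8.03 kb. In the length class of that window, 25.9% of protein-coding genes held an optimal summit. The 1 gene that counted was da, the common partner of proneural proteins, whose summit was 91 bp from its TSS with a signal of 90.1. The best summit of da ranked 2305 in replicate 3 and 827 in replicate 4. None of ac, sc, l(1)sc, ato and amos, the genes for proneural proteins themselves, had one.

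Asymmetric division genes, whose products set the polarity of neuroblasts or pass on with pros, counted 7 of 11, or 63.6%, with a median window of 18.8 kb. The share was 21.0% over all protein-coding genes and 36.9% over those with windows at least as long as that of elav. The highest signals were 159 at numb, a Notch inhibitor, 63 bp from its TSS, 137 at brat, a translational repressor, 680 bp from its TSS, and 136 at aPKC, a polarity kinase, 85 bp from its TSS. In both replicates these 3 genes had a summit ranked 913 or better. The others were par-6, insc, baz and dlg1. In replicate 4 the best summits of baz and dlg1 ranked 2522 and 2667, outside the strongest 1985, so that 7 of the 11 genes counted in replicate 3 and 5 in replicate 4 and in both. The summits counted for par-6, insc and baz lay nearer to the starts of CG8188, sktl and lncRNA:CR44026. That of baz was 18815 bp from its own TSS and 4421 bp from the start of lncRNA:CR44026. The gene mira, whose product carries Prospero into the daughter cell, held none.

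Glial genes, the group of repo, counted 3 of 10, or 30.0%, with a median window of 11.1 kb. In the length class of that window, 30.1% of protein-coding genes held an optimal summit. The signal was 237 at moody, a receptor gene of the blood-brain barrier, where the best summit ranked 135 in replicate 3 and 114 in replicate 4. It was 89.5 in an intron of pnt and 70.4 near a start of loco. Genes of differentiated neurons counted 2 of 14, or 14.3%, with a median window of 31.2 kb. In the length class of that window the share was 36.9%. The 2 genes were ChAT and VAChT, which make and load acetylcholine and share a single summit of signal 68.7. This summit lay 14422 bp from their own TSS, in a ChAT intron. It was 300 bp from the start of lncRNA:CR46265, in a non-coding exon of that gene. Their best summit ranked 3299 in replicate 3 and 1583 in replicate 4. The genes ewg, Nrg and arm, whose transcripts ELAV is known to splice, counted 0 of 3. Their median window was 15.2 kb, in the same length class as that of the glial genes. Neural RNA-binding protein genes counted 4 of 12, or 33.3%, with a median window of 75.0 kb. In the longest length class of protein-coding genes, with windows above 40.0 kb, 39.8% held an optimal summit. The highest signals of the RNA-binding protein genes were 321 at mub, 102 at Rbfox1 and 80.1 at Fmr1, with summits 936, 3128 and 26 bp from a TSS.

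**Figure D5:**
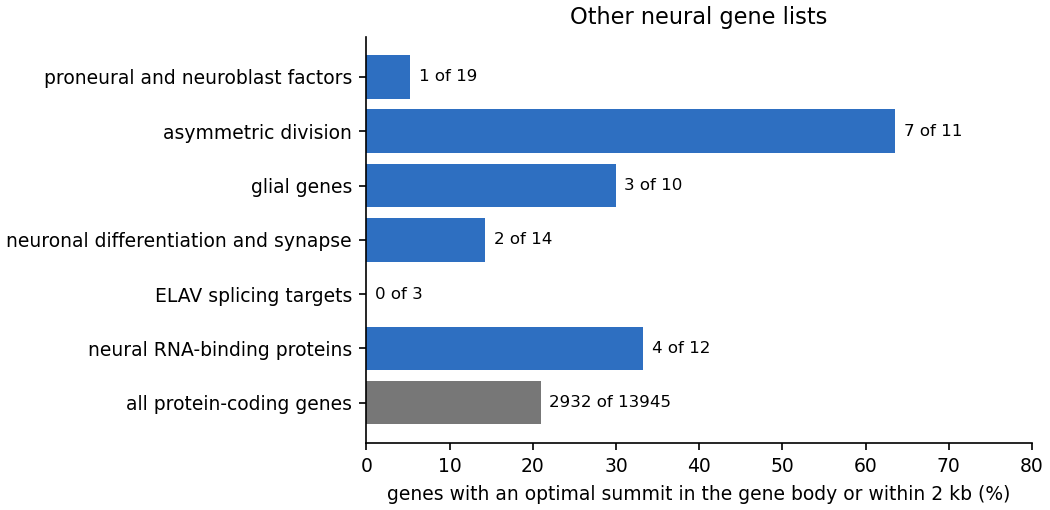
Percent of genes in 6 lists of other neural genes (blue) and of all protein-coding genes (grey) with an optimal summit in the gene body or within 2 kb, with counts beside the bars. The shares go from 0 of 3 for ELAV splicing targets to 7 of 11 for asymmetric division genes.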

How the data were processed

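Per the labels, sonicated chromatin of 200 to 800 bp from 2 biological replicates was immunoprecipitated against GFP. Per the deposited file listing, the authors made a relaxed peak list for each replicate and for both pooled from the alignments and 1 further file, which the listing also names for control-normalised tracks, and derived the optimal list from these by the irreproducible discovery rate. Its cutoff, the aligner and the peak caller were not given in the sources used here. The deposited signal of a peak is the authors' enrichment value, on a scale that differs between lists (medians of 28.1 pooled, 9.57 in replicate 3 and 21.0 in replicate 4). The deposited −log10 q values had 1163 pooled peaks at the same highest value and were not used for ranks. Read counts were not used, and the depth behind a peak is therefore unknown. The 1985 optimal peaks were exactly the strongest 1985 pooled ones, and the replicates shared no identical interval.

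The dm6 lists were used, with coordinates 1-based, and the dm3 lists were not used here. Genes were those of Ensembl release 115 on the arms, 18164 without transposable elements, and all 7 names matched. Replicate values are those of the strongest peak that overlaps the pooled peak by at least 1 bp. Peaks and genes were counted with Python 3.11.15, pandas 2.3.3 and SciPy 1.17.1, and the counting was tested on simulated data. No test was made, because 1 group without a control allows none for these genes.

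The genes, the lists and the motifs were chosen with earlier results of these data known. Named genes are the 7, those with the nearest TSS, up to 3 per other list by optimal signal with the rest of small counts added after their values were seen, and the 3 closest in rank to elav and to pros. Genes of the other lists named as holding no optimal summit fall outside these rules. Alternatives covered the window, the overlap, a stricter list, rank limits, the TSS distance, the motif window and each replicate alone.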

Additional observations from a re-analysis of the deposited data

How the results depend on the processing

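The genes with an optimal summit were elav and pros with windows of 0 and 500 bp, with the stronger 992 optimal peaks, with peak overlap in place of summits, and without either replicate. With a window of 5 kb repo was added, giving 3 genes and 5 optimal summits, the added 2 being those of 14-3-3epsilon. Leaving out a replicate gave 3 to 4 summits at the 7 genes, 2 genes each time, 42 to 45 relaxed summits, and 16 to 18 of the other neural genes. The stronger 992 peaks left 7 of these other genes, in place of 17. The number of optimal summits near a TSS of the 7 genes was 0 within 250 bp and 2 within 1000 bp, in place of 1. Pairs of a motif and a peak with a match numbered 6 over whole peaks and 3 in the shorter window around summits. The background share was 18.8% over all genes and 28.9% over windows at least as long as the shortest of the 7, in place of 21.0%. The median log2 replicate ratio was 0.01 over the 22 summits of the 7 genes met in both replicates, -0.10 over the 17 with an overlap of 50% and -0.16 over the 12 with summits within 100 bp. No paired analysis was possible because there was 1 group. Depth was unknown, so whether the weaker sites are bound was not detectable from these lists.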

Other observations

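The word CACAGTGG lay within 10 bp of the summit in 28 of the 1985 optimal peaks, or 1.41%, and the pros intron peak was one of these. The strongest optimal peaks of the other neural genes, 16 in all, held it in 0 cases over their whole length, against 11.3% of all optimal peaks, a difference that so few peaks cannot show. The nearest to ase was 30814 bp from the gene body, with CG17896 as the gene of the nearest TSS, with a signal of 288 and rank 81.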
